A study of Homo sapiens with 12 samples.

Results

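LCP1, SYNPO, MYO7A, MAP2 and ARHGDIB are 5 cytoskeletal genes out of 18969 genes listed for HCT116 cells recovering from methionine restriction. They were chosen by readout: LCP1, SYNPO, MYO7A and MAP2 for large rises after recovery, and ARHGDIB for a rise with the inhibitor UNC0642. HCT116 is an established human colorectal carcinoma line, and 12 RNA libraries form 3 groups of 4. Cells of the DMSO recovery and UNC0642 recovery groups spent 24 h without methionine, with the vehicle or with UNC0642, and then 24 h with methionine and without inhibitor. UNC0642 inhibits EHMT1 and EHMT2, methyltransferases of histone H3 lysine 9 also called GLP and G9a. The group labelled 0 h is the comparator, and no label tells if it preceded the restriction or ended it. All groups share the line, the base medium and its serum. Separate cultures are not stated for the replicates, so p-values rest on a spread between libraries that may be only technical.

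The actin cytoskeleton is built of filaments that bundling proteins tie together, that myosins move along, while microtubules are steadied by associated proteins along their length. LCP1 (L-plastin) bundles actin filaments and is best known from leukocytes, although many carcinoma lines make it too. SYNPO (synaptopodin) binds actin and alpha-actinin and is known from kidney podocytes and dendritic spines. MYO7A is an unconventional myosin of sensory hair cells and retina, MAP2 is a microtubule-associated protein of neuronal dendrites, and ARHGDIB (RhoGDI2) holds small GTPases in their inactive, cytosolic form and is abundant in blood cells.

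Upstream sequence was available from RefSeq (GRCh38.p14) for 4 of the 5 genes, and it is shown because these are the start regions of the genes whose levels differed. Each stretch runs 5′ to 3′ on the gene's strand, ends before the first base that RefSeq or GENCODE v29 counts as transcribed, and comes from chr13:46182325-46182427 (minus strand) for LCP1, chr5:150600826-150601075 (plus) for SYNPO, chr2:209661246-209661464 (plus) for MAP2 and chr12:14948897-14949146 (minus) for ARHGDIB. Capitals mark matches, on either strand, to one of 6 motifs.
LCP1: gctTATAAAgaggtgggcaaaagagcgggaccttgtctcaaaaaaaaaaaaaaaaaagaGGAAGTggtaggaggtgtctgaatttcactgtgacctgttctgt
SYNPO: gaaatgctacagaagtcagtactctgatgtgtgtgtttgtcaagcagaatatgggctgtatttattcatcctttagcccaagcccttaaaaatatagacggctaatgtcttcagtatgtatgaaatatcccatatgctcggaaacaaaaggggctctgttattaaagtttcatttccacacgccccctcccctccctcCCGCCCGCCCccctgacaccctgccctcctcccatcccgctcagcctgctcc
MAP2: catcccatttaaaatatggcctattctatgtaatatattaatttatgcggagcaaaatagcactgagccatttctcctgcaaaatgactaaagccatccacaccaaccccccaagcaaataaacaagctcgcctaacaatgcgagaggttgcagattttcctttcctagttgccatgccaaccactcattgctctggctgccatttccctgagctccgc
ARHGDIB: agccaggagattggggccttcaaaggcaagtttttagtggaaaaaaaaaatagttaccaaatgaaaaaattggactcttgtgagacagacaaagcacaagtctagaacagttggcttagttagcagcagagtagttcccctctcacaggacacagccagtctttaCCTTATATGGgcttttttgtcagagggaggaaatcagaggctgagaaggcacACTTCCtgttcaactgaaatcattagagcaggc
The motifs, picked after the sequences were seen, were the ETS core ACTTCC, the AP-1 site TGANTCA, the SP and KLF site GGGCGG, the TATA box TATAAA, the cyclic AMP element TGACGTCA and the serum response element core, the CArG box. No overlap between motifs occurred in these stretches. Over the whole window of 300 bases around the first listed start, LCP1 held the ETS core at 191 and 46 bases upstream, GGGCGG at 131 and TATAAA at 247 and 97, and ARHGDIB held the ETS core at 33 bases upstream. ARHGDIB also held a CArG box starting 85 bases upstream, SYNPO held overlapping GGGCGG matches, and MAP2 held none of the 6. Of 35116 windows of this length, 22.8% held ACTTCC, 45.0% GGGCGG, 11.5% TATAAA, 7.71% TGANTCA, 1.85% TGACGTCA and 1.29% a CArG box. Further listed starts gave TGAGTCA matches in SYNPO and ARHGDIB. All 4 windows around the first listed starts were poorer in CG dinucleotides than the median window, which held 14: LCP1 held 2, SYNPO 12, MAP2 5 and ARHGDIB 1. The quartiles over all windows were 4 and 28, so SYNPO and MAP2 lay between them. A match is a description of these letters and not a measured binding site.

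Library totals were 14658082 to 20179847 expected counts, the estimated read numbers that the deposited files give per gene. Levels are in CPM, the count of a gene scaled to a common library size by the trimmed mean of M-values (TMM). Of the listed genes, 12741 had enough counts for edgeR's quasi-likelihood test, and "called" means an adjusted p (Benjamini-Hochberg, over all of them) under 0.05. All 5 genes passed the count filter. Of 10 colorectal epithelial markers, KRT8, KRT18, KRT19, EPCAM, CDH1 and CDX2 were expressed. The summed level of the 10 was 4940 to 5790 CPM per library, most of it from KRT8, KRT18 and KRT19. VIL1, another of these markers, was at 0 to 0.346 CPM. LGALS4, CEACAM5 and KRT20 were low too, at 0 to 4, 0 to 7 and 5 to 27 counts per library. COL1A2, a fibroblast collagen, was above 1 CPM in 6 libraries (0 h replicates 1, 2 and 3, DMSO replicate 1, UNC0642 replicates 3 and 4). Those 6 are left out in an alternative that keeps a single 0 h library. The deposited effective length of each gene falls short of its length by 119.9 to 126.8 bases in 7 libraries and by 101.3 to 106.0 bases in 5, and each group holds libraries of both classes. In bulk RNA, fewer cells expressing a gene and less of its RNA per cell cannot be told apart.

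Per length, the 5 genes were low throughout, and ARHGDIB led at 0 h. The deposited FPKM (fragments scaled by transcript length and library total) at 0 h were 1.51 ± 0.403 for ARHGDIB, 0.635 ± 0.09 for MAP2, 0.528 ± 0.0964 for SYNPO, 0.19 ± 0.0483 for LCP1 and 0.113 ± 0.0395 for MYO7A (SD, n = 4 each). The library ranges of MAP2 and SYNPO overlapped at 0 h, as did those of LCP1 and MYO7A. After DMSO recovery the order was MAP2 at 2.06 ± 0.146, SYNPO at 1.86 ± 0.156, ARHGDIB at 1.69 ± 0.153, LCP1 at 0.895 ± 0.469 and MYO7A at 0.343 ± 0.0403 FPKM (SD, n = 4), and each of the first 3 overlapped with the next, LCP1 reaching ARHGDIB only through DMSO replicate 3. After UNC0642 recovery ARHGDIB stood first again at 3.82 ± 0.484, above MAP2 at 2.15 ± 0.236, SYNPO at 2.04 ± 0.169, LCP1 at 1.36 ± 0.223 and MYO7A at 0.323 ± 0.0171 FPKM (SD, n = 4), with only MAP2 and SYNPO overlapping among neighbours.

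**Figure D1:**
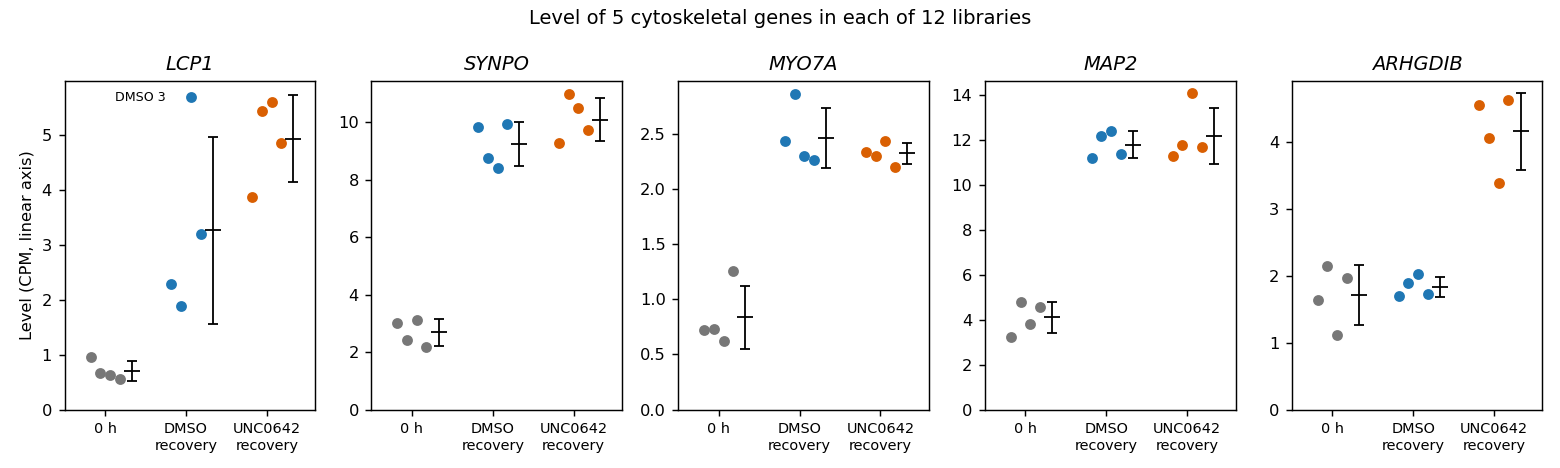
Level of each of the 5 genes in CPM (vertical axis, linear, from 0) in the 4 libraries of each group (horizontal axis); points are libraries in replicate order and the black mark is the mean with its SD. SYNPO, MYO7A and MAP2 are higher in all 8 recovery libraries than at 0 h and similar with and without UNC0642, LCP1 is scattered after DMSO recovery (1.89 to 5.68), and ARHGDIB is higher only in the UNC0642 libraries (3.38 to 4.62).

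LCP1, the actin bundler, was measured at 0.967, 0.675, 0.626 and 0.561 CPM in the 4 libraries at 0 h. It stood at 2.28, 1.89, 5.68 and 3.19 CPM after DMSO recovery and at 3.86, 5.43, 5.6 and 4.84 CPM after UNC0642 recovery. Every recovery library was above every 0 h library. DMSO replicate 3 lay above all UNC0642 libraries, while the other 3 DMSO libraries lay below all of them. Mean levels were 0.707 ± 0.179, 3.26 ± 1.7 and 4.93 ± 0.786 CPM (SD, n = 4), from 45, 240 and 371 summed counts. The contrasts with 0 h chose the gene and carry no test: the difference was 2.18 ± 0.30 (SE) on the log2 scale, or 4.54-fold, for DMSO recovery, and 2.77 ± 0.29, or 6.84-fold, for UNC0642 recovery. Without DMSO replicate 3 the first of these was 1.78.

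UNC0642 against DMSO recovery, which did not enter the choice of LCP1 although it shares libraries with the contrast that did, gave a log2 fold change of 0.59 ± 0.21 (SE), with a 95% interval of 0.16 to 1.02. The unadjusted p was 0.00868 and edgeR's adjusted p 0.11, so the difference was not called. Without DMSO replicate 3 it was 0.99 with an adjusted p of 0.00182 by edgeR's test. It was also called with no count filter (adjusted p 0.026), with the length-gap class as a covariate (0.0288) and by limma-voom (0.046), but not by DESeq2 (0.169). Within the 7 and the 5 libraries of a length-gap class it was 0.62 and 0.93 (the second with 1 DMSO library), and without the 6 libraries with COL1A2 it was 0.36.

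DMSO replicate 3 also held more LAPTM5, a leukocyte lysosomal membrane gene: 2.3 CPM against 0.265, 0.0609 and 0.686 in the other DMSO libraries, 0 to 0.14 at 0 h and 0.055 to 0.274 with UNC0642. Of the 22 leukocyte markers listed, all were in the files and 4 could be tested, and their summed CPM spanned 59.3 to 66.8 at 0 h, 72.4 to 75.7 with DMSO and 61.1 to 69.1 with UNC0642. Most of this came from RAC2, VAV1, CD68 and CORO1A, at 30.9 to 44.0, 13.3 to 20.4, 6.08 to 9.6 and 3.28 to 6.35 CPM. PTPRC (CD45), which defines leukocytes, was at 0 to 0.122 CPM over all 12 libraries and CD3E, of T cells, at no more than 0.0562 CPM. The part of such RNA in the LCP1 level of DMSO replicate 3 was not tested.

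The other plastins moved little. PLS1, the intestinal plastin of microvilli, was at 45.7, 51.9 and 52.5 CPM at 0 h, after DMSO and after UNC0642 recovery, and rose by 0.18 ± 0.04 and 0.20 ± 0.04 (log2, SE, edgeR adjusted p 0.000951 and 0.000359) against 0 h. PLS3, the widely expressed plastin, was at 95.5, 103.0 and 102.0 CPM and rose by 0.11 ± 0.04 and 0.10 ± 0.04. Neither was called between UNC0642 and DMSO (0.02 ± 0.04 and -0.01 ± 0.04).

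Among 43 tested actin bundlers and crosslinkers other than LCP1, 21 rose and 9 fell after DMSO recovery, against 22.4% and 21.7% of all tested genes called higher and lower. After UNC0642 recovery 24 rose and 9 fell, against 23.4% and 23.6% of all tested genes. ESPN, which builds parallel bundles in microvilli and stereocilia, rose by 0.55 ± 0.05 and 0.65 ± 0.05, from 37.6 to 54.8 and 58.6 CPM. COBL, an actin nucleator, rose by 0.44 ± 0.05 and 0.51 ± 0.05, and SPTBN1, a spectrin of the membrane skeleton, by 0.24 ± 0.03 and 0.26 ± 0.03. Between UNC0642 and DMSO recovery 2 rose (FLNA by 0.12 ± 0.02, MSN by 0.09 ± 0.03) and 2 fell (EPS8, -0.19 ± 0.04; PALLD, -0.12 ± 0.03), against 2.06% of all tested genes higher and 2.53% lower. The median log2 difference of these 43 was 0.10 and 0.13 against 0 h, where that of all genes was 0.007 and 0.006.

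SYNPO was measured at 3.02, 2.42, 3.13 and 2.17 CPM at 0 h, at 9.84, 8.77, 8.43 and 9.95 after DMSO recovery and at 9.3, 11.0, 10.5 and 9.74 after UNC0642 recovery. All 8 recovery libraries lay above all 0 h libraries, and the recovery groups overlapped. Mean levels were 2.69 ± 0.463, 9.25 ± 0.763 and 10.1 ± 0.75 CPM (SD, n = 4). The contrasts used for the choice were 1.79 ± 0.13 (SE, 3.45-fold) and 1.91 ± 0.13 (3.76-fold) on the log2 scale. UNC0642 against DMSO recovery gave 0.13 ± 0.10, with a 95% interval of -0.08 to 0.33 and an edgeR adjusted p of 0.569, so a change above 1.26-fold lay outside the interval. SYNPO2 and SYNPO2L, the muscle-type relatives, were low (group means of 0.73 to 1.18 CPM) and not called in any of the 3 comparisons.

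Partners of synaptopodin were mixed. Of 14 tested genes 7 rose and 1 fell after DMSO recovery (beside 22.4% and 21.7% of all tested genes), and 5 rose and 2 fell after UNC0642 recovery (35.7% and 14.3%, beside 23.4% and 23.6%). CTTN (cortactin), which stabilises branched actin, rose by 0.34 ± 0.03 and 0.40 ± 0.03, from 199 to 252 and 263 CPM. SH3KBP1, an endocytic adaptor, rose by 0.23 ± 0.03 and 0.28 ± 0.03, and ACTN4, the alpha-actinin of podocytes and epithelia, by 0.10 ± 0.02 and 0.14 ± 0.02. PPP3CB, a catalytic subunit of calcineurin, fell (-0.39 ± 0.05 and -0.36 ± 0.05). Only MAGI1, a tight-junction scaffold, was called between UNC0642 and DMSO recovery, and it was lower (-0.27 ± 0.04, edgeR adjusted p 5.49e-05). Of 9 podocyte markers, 4 could be tested, and their summed level was 93.6 to 103.0 CPM at 0 h and 120.0 to 129.0 after DMSO recovery. PODXL gave most of this sum. The part of podocyte markers in the SYNPO level was not tested.

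MYO7A, the lowest of the 5 per length, was measured at 0.725, 0.731, 0.626 and 1.26 CPM at 0 h. It stood at 2.43, 2.86, 2.3 and 2.26 CPM after DMSO recovery and 2.33, 2.3, 2.43 and 2.2 after UNC0642 recovery. The 0 h libraries were all below the recovery libraries, with replicate 4 apart from the other 3. Mean levels were 0.836 ± 0.288, 2.46 ± 0.276 and 2.32 ± 0.0946 CPM (SD, n = 4), from 52, 180 and 175 summed counts, and the counts per library at 0 h were 9 to 18. The contrasts used for the choice were 1.56 ± 0.24 (SE, 2.95-fold) and 1.48 ± 0.25 (2.78-fold) on the log2 scale, and without the 6 libraries with COL1A2 they were 0.95 and 0.87. The single 0 h library left there is replicate 4, the one with the highest MYO7A. UNC0642 against DMSO recovery gave -0.08 ± 0.20, with a 95% interval of -0.49 to 0.32 and an edgeR adjusted p of 0.891.

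Of 13 other unconventional myosins tested, 9 rose and 1 fell after either recovery. These are 69.2% and 7.69%, against 22.4% and 21.7% of all tested genes for DMSO recovery and 23.4% and 23.6% for UNC0642 recovery. MYO1D, a membrane-tethering myosin, rose by 0.67 ± 0.05 and 0.73 ± 0.05, from 49.3 to 78.6 and 81.8 CPM. MYO1E rose by 0.50 ± 0.05 and 0.49 ± 0.05, and MYO5B, which carries recycling endosomes to the apical surface, by 0.36 ± 0.04 and 0.49 ± 0.04. MYO10, the filopodial myosin, was the 1 called between UNC0642 and DMSO recovery and was lower (-0.14 ± 0.03). MYO7B, the paralog of intestinal microvilli, was at 0 in most libraries, with a mean of 0.0152 CPM after DMSO recovery.

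Partners of myosin VII in the Usher and microvillar adhesion complexes included 10 tested genes, of which 5 rose after DMSO recovery and 4 after UNC0642 recovery, and none fell by edgeR's test, by limma-voom, by DESeq2 or at an unadjusted p under 0.05. Over all tested genes 22.4% and 23.4% were called higher and 21.7% and 23.6% lower. DFNB31 (whirlin) rose by 0.60 ± 0.11 and 0.53 ± 0.11, USH1C (harmonin) by 0.45 ± 0.10 and 0.47 ± 0.10, and TWF2 (an actin-capping twinfilin) by 0.19 ± 0.04 and 0.20 ± 0.04. Sensory hair cell markers, 10 in number, summed to 39.7 to 49.1 CPM at 0 h and 59.7 to 70.6 in the recovery libraries. Most of this came from ESPN. Among the 4 that could be tested, ESPN alone was called higher with DMSO against 0 h. With UNC0642 3 were called higher against 0 h, namely ESPN, GFI1 (0.44 ± 0.13) and STRC (1.23 ± 0.48). No tested marker was called lower. ATOH1 and POU4F3, factors that define hair cells, were at no more than 0.11 and 0.278 CPM. The part of hair cell markers in the MYO7A level was not tested.

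MAP2 was measured at 3.26, 4.78, 3.82 and 4.56 CPM at 0 h, at 11.2, 12.2, 12.4 and 11.4 after DMSO recovery and at 11.3, 11.8, 14.1 and 11.7 after UNC0642 recovery. The 0 h libraries lay far below the others, and UNC0642 replicate 3 was the highest. Mean levels were 4.11 ± 0.695, 11.8 ± 0.599 and 12.2 ± 1.25 CPM (SD, n = 4). The contrasts used for the choice were 1.52 ± 0.12 (SE, 2.86-fold) and 1.57 ± 0.12 (2.97-fold) on the log2 scale. UNC0642 against DMSO recovery gave 0.05 ± 0.10, with a 95% interval of -0.14 to 0.25 and an edgeR adjusted p of 0.853, so the interval ended at 1.19-fold.

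The deposited gene length gave a readout of MAP2 that the choice had not used. It is the mean length of the gene's transcripts weighted by their estimated abundance, so it moves when the estimated mix of isoforms moves. The files list 4 MAP2 transcripts, and the GENCODE v29 transcripts matched to them are 2241, 5303 and 9711 bases long. The length was 6123, 6690, 6454 and 6309 bases at 0 h, 5986, 5774, 5840 and 5985 after DMSO recovery and 6024, 5758, 5885 and 5915 after UNC0642 recovery. Every recovery library was shorter than every 0 h library. Means were 6394.0 ± 239.1, 5896.3 ± 106.2 and 5895.5 ± 109.3 bases (SD, n = 4), a difference of -497.7 and -498.5 bases. An exact two-sided permutation test gave p = 0.0286 for each, the smallest that 4 against 4 can give, and 0.129 after Benjamini-Hochberg adjustment over the 9 comparisons of SYNPO, MYO7A and MAP2. Fitted with limma over 4504 genes of varying length, the adjusted p was 0.0923 and 0.0854, so neither passed, and 0.844% and 0.688% of those genes did. Groups that do not overlap in length occurred in 6.62% and 6.55% of the same genes. Within the libraries of larger length gap the differences were -540.1 and -584.9 bases, and within those of smaller gap -395.6 (1 DMSO library) and -412.1 bases.

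SYNPO and MYO7A, with 4 and 3 listed transcripts, showed no such shift: their lengths ranged over 4990 to 5262 and 7339 to 7465 bases and the groups overlapped. LCP1 and ARHGDIB have 1 listed transcript each.

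**Figure D2:**
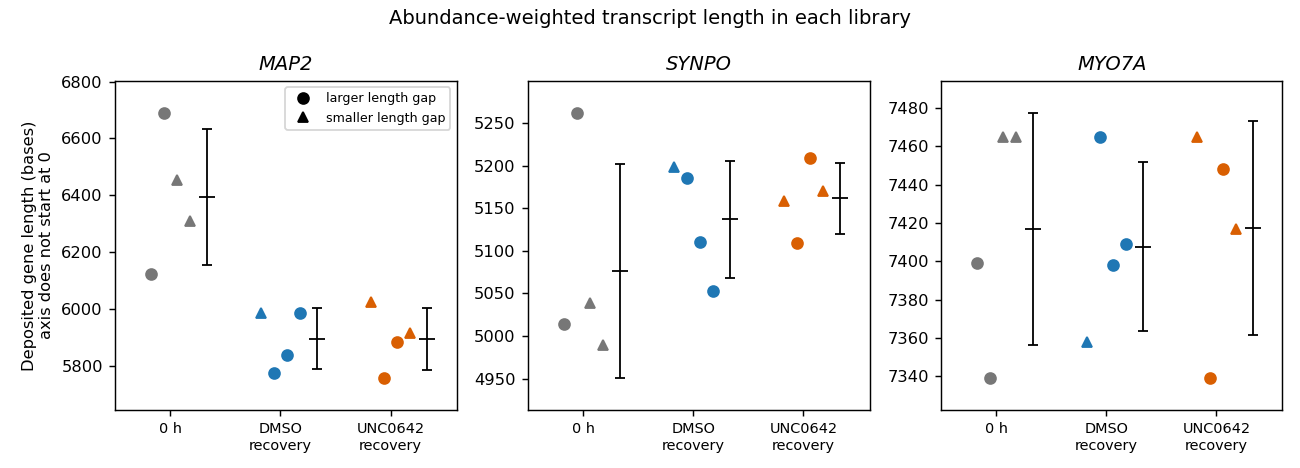
Deposited gene length in bases (vertical axes, which do not start at 0) of MAP2, SYNPO and MYO7A in the 4 libraries of each group; circles and triangles are libraries of larger and smaller length gap and the black mark is the mean with its SD. MAP2 is shorter in all 8 recovery libraries (5758 to 6024) than at 0 h (6123 to 6690), while the groups overlap for SYNPO and MYO7A.

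Of the related genes followed by name, MAP1A rose by 0.47 ± 0.10 and 0.31 ± 0.10 (log2, SE) against 0 h, MAP1B by 0.27 ± 0.08 and 0.38 ± 0.08, MAPT (tau) by 0.23 ± 0.05 and 0.31 ± 0.05, and MAP4, the main form outside neurons, by 0.18 ± 0.02 and 0.15 ± 0.02. MAP1S, at -0.10 ± 0.04 and -0.06 ± 0.04, was not called. MAP4 was at 415, 470 and 461 CPM. Of 34 tested microtubule-associated proteins other than MAP2, 15 rose and 5 fell after DMSO recovery (beside 22.4% and 21.7% of all tested genes), and 14 rose and 6 fell after UNC0642 recovery (41.2% and 17.6%, beside 23.4% and 23.6%). NAV2, a neuron navigator, rose by 0.90 ± 0.11 with UNC0642 against 0 h, and all its DMSO libraries lay above those of 0 h too. Its levels were 4.77 to 6.81 CPM at 0 h, 8.58 to 10.7 with DMSO and 9.94 to 11.6 with UNC0642. STMN3, a tubulin-sequestering stathmin, fell against 0 h by 0.47 ± 0.03 with DMSO and by 0.37 ± 0.03 with UNC0642. None of the 34 was called between UNC0642 and DMSO recovery by edgeR's test or limma-voom, 1 was by DESeq2, and 3 were higher and 3 lower at an unadjusted p under 0.05. Of 18 tubulins, 4 rose and 5 fell after DMSO recovery (22.2% and 27.8%, near the 22.4% and 21.7% of all tested genes), and 6 rose and 5 fell after UNC0642 recovery (33.3% and 27.8%, against 23.4% and 23.6%). Between the recoveries 3 rose and 1 fell (16.7% and 5.56%, against 2.06% and 2.53% of all tested genes). The number that fell changed in 14 of 28 alternatives. TUBA1B, a main alpha-tubulin of dividing cells, fell by 0.29 ± 0.02 after DMSO recovery and by 0.26 ± 0.02 after UNC0642 recovery. Neuron markers, 14 in number, summed to 228.0 to 231.0, 248.0 to 257.0 and 263.0 to 270.0 CPM in the 3 groups, and 5 could be tested. TUBB3, SYT1 and MAPT gave most of this sum. STMN2, ELAVL4 and DCX were at 0 in all libraries, and NEFL, NEFM, INA and GAP43 held no more than 2 counts in any. The part of neuron markers in the MAP2 level was not tested.

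ARHGDIB, a GDP-dissociation inhibitor, was measured at 1.63, 2.14, 1.11 and 1.96 CPM at 0 h and at 1.69, 1.89, 2.02 and 1.72 after DMSO recovery. After UNC0642 recovery it was at 4.55, 4.06, 3.38 and 4.62 CPM. The first 2 groups overlapped, and all 4 UNC0642 libraries lay above the other 8. Mean levels were 1.71 ± 0.451, 1.83 ± 0.155 and 4.15 ± 0.572 CPM (SD, n = 4), from 109, 134 and 314 summed counts. The contrasts used for the choice were 1.18 ± 0.19 (SE, 2.27-fold) for UNC0642 against DMSO recovery and 1.26 ± 0.20 (2.4-fold) for UNC0642 against 0 h. DMSO recovery against 0 h, which the choice did not use, gave 0.08 ± 0.22 on the log2 scale, with a 95% interval of -0.37 to 0.53 (0.775- to 1.44-fold) and an edgeR adjusted p of 0.795. The 0 h libraries spread widely (16 to 38 counts), and without replicate 3 of that group the value was -0.068. Within the classes of larger and smaller length gap the UNC0642 and DMSO recovery groups differed by 0.99 and 1.43, the second from 2 libraries against 1.

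ARHGDIA, the ubiquitous GDP-dissociation inhibitor of this family, was at 681 ± 9.44, 609 ± 11.5 and 644 ± 17.7 CPM (SD, n = 4). It fell by 0.16 ± 0.02 after DMSO recovery and by 0.08 ± 0.02 after UNC0642 recovery, and it was 0.08 ± 0.02 higher with UNC0642 than with DMSO (edgeR adjusted p 0.03). ARHGDIG was at 0 in all libraries.

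**Figure D3:**
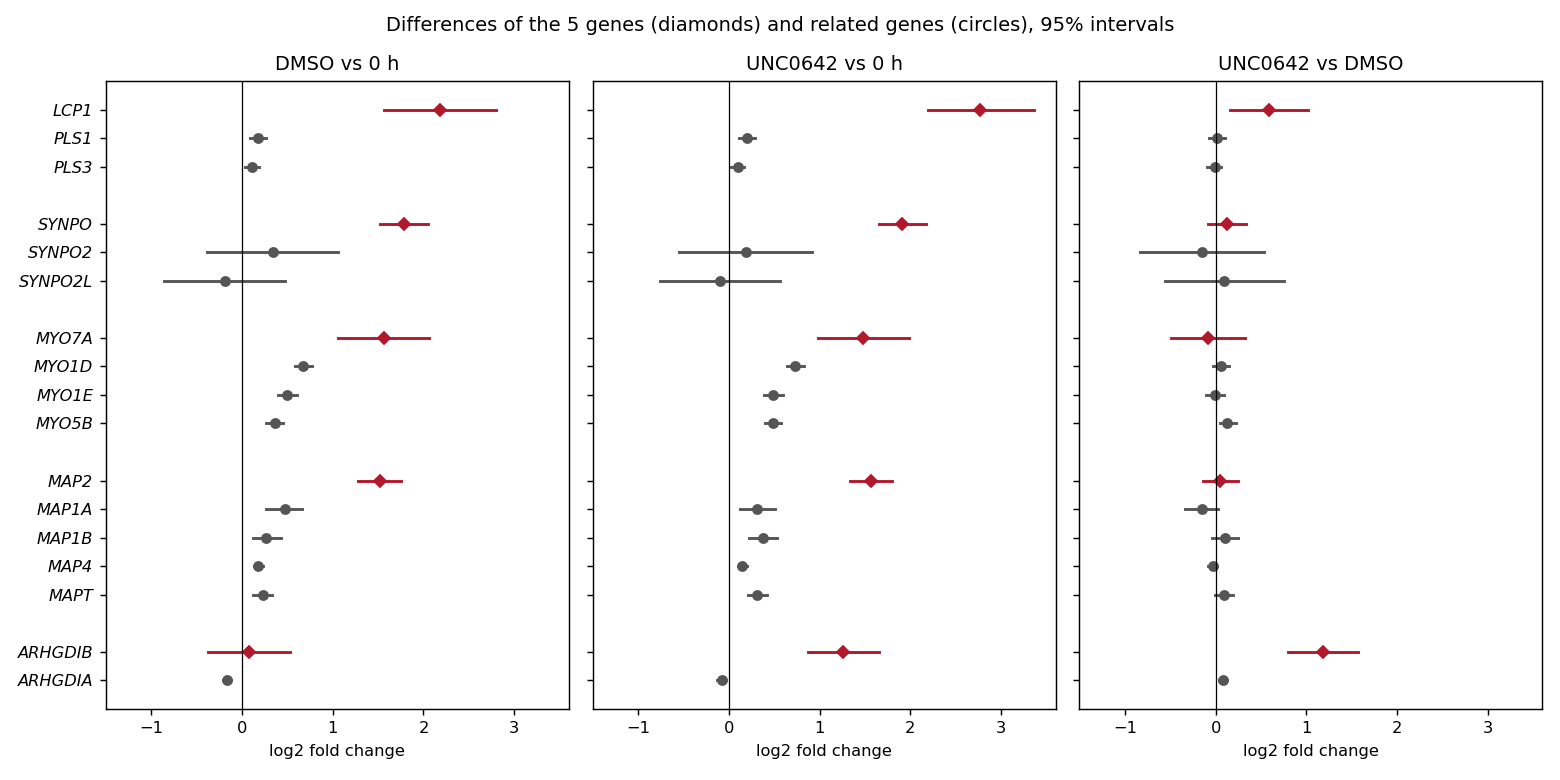
Log2 fold change (horizontal axes) of the 5 genes (diamonds) and related genes (circles) in the 3 comparisons, with 95% intervals from edgeR's fit over 12 libraries. LCP1, SYNPO, MYO7A and MAP2 stand at 1.48 to 2.77 against 0 h while the 12 related genes drawn, which are a selection, stand between -0.19 and 0.73, and ARHGDIB is the gene drawn that stands above 1 between UNC0642 and DMSO.

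Listed relatives with larger differences included PRPH, a neuronal intermediate filament (1.34 ± 0.20 and 1.25 ± 0.21 against 0 h), MYRIP, which links myosin VII to vesicles (1.19 ± 0.44 and 1.10 ± 0.45), and TMOD2, a filament-capping tropomodulin (0.82 ± 0.09 and 0.93 ± 0.08). They are named here after their values were seen. MYRIP held only 1 to 8 counts per library at 0 h and 10 to 20 after recovery.

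The cytoskeletal lists pooled here include the targets of the transcription factor SRF, such as EGR1, FOS and THBS1, so not every gene is cytoskeletal. Of 273 tested genes in these lists other than the 5, 105 rose and 53 fell after DMSO recovery, and 110 rose and 52 fell after UNC0642 recovery. The shares that rose, 38.5% and 40.3%, stood beside 22.4% and 23.4% of all tested genes, and those that fell, 19.4% and 19.0%, beside 21.7% and 23.6%. Between UNC0642 and DMSO recovery 19 rose and 7 fell (6.96% and 2.56%, against 2.06% and 2.53% of all tested genes). Of those that rose, 10 are in 1 list, the targets of SRF and its cofactor MRTF. In this list 10 of 23 tested genes rose by edgeR's test. None fell by that test, by limma-voom or by DESeq2, with 1 lower at an unadjusted p under 0.05. EGR1 and FOS, immediate early genes that SRF and growth factor signalling share, rose by 1.23 ± 0.06 and 0.79 ± 0.13, and THBS1, a matrix protein, by 0.41 ± 0.04. EGR1 was at 50.8 ± 4.66, 32.6 ± 3.18 and 76.6 ± 4.97 CPM (SD, n = 4). After DMSO recovery 5 of this list rose and 12 fell, EGR1 among them (-0.63 ± 0.06), and after UNC0642 recovery 11 rose and 5 fell. The comparisons with 0 h share the 0 h libraries, and the others share the DMSO or UNC0642 libraries, so the counts are not independent of each other.

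**Figure D4:**
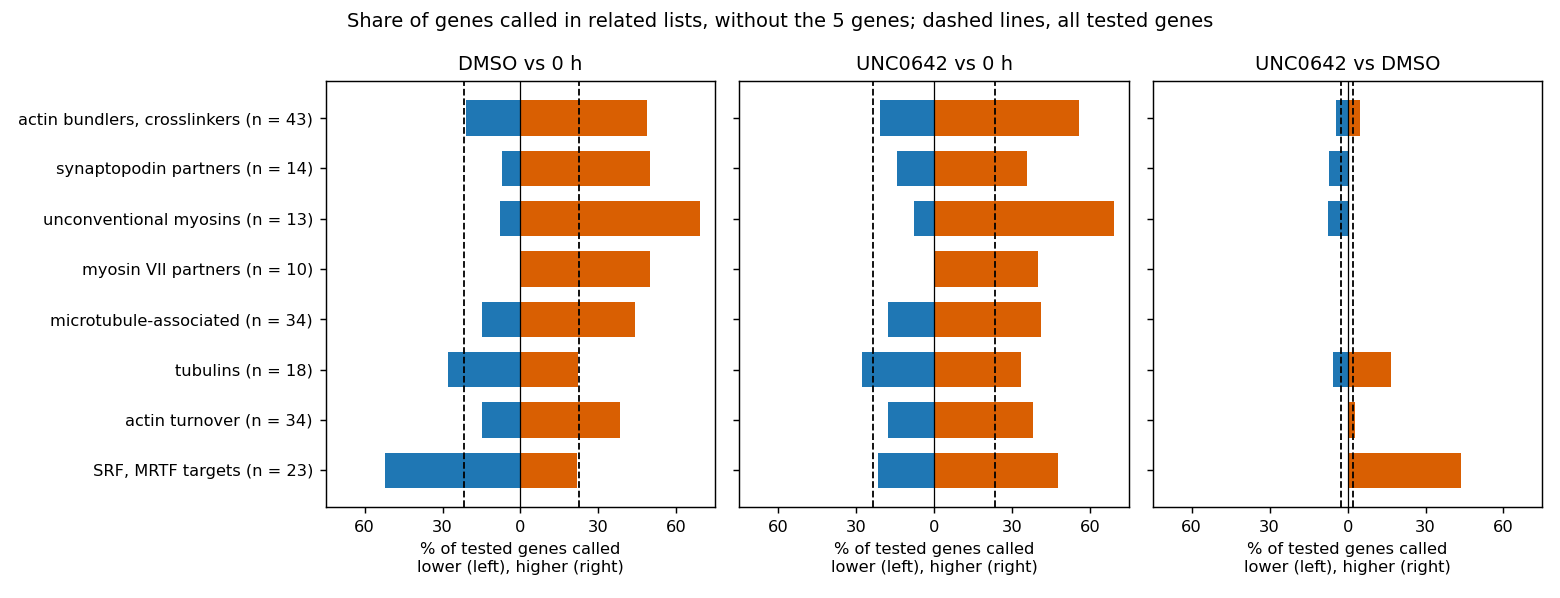
Share of tested genes called lower (left) and higher (right) in 8 lists without the 5 genes, for the 3 comparisons, in percent; dashed lines give the share over all 12741 tested genes. Unconventional myosins reach 69.2% higher against 0 h in both recoveries, and SRF and MRTF targets are at 43.5% higher between UNC0642 and DMSO where all genes are at 2.06%.

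Counts of genes whose libraries do not overlap between groups are high throughout these data: 38.3% of tested genes for DMSO recovery against 0 h, 40.2% for UNC0642 recovery against 0 h and 10.5% between the recoveries. LCP1, SYNPO, MYO7A and MAP2 did not overlap in either contrast with 0 h and ARHGDIB did not in either contrast of UNC0642, which are the contrasts that chose them, so nothing is read from it.

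The genes nearest to each of the 5 over the 12 libraries were found by the root mean square difference of log2 CPM after each gene's own mean was subtracted, over 11438 candidates whose mean log2 CPM was 1 or more. LIPG, a lipase (difference 0.15), KRT7, a keratin (0.19), and CR2, a complement receptor (0.20), were nearest to SYNPO. COL13A1, a transmembrane collagen (0.15), ID3 (0.21) and CR2 (0.21) were nearest to MAP2. TNXB, ID3 and MAP2 (0.21 each) were nearest to MYO7A, and HIST1H1C (0.49), KRT7 (0.50) and SYNPO (0.51) to LCP1, whose DMSO libraries scatter more. For ARHGDIB they were ABCC2, an export pump (0.26), ZBED2 (0.27) and FHAD1 (0.29), which stood at 32.7, 24.7 and 2.15 CPM at 0 h, at 36.8, 27.0 and 2.46 after DMSO recovery and at 66.6, 47.8 and 5.26 after UNC0642 recovery. Only 3 of the 15 neighbours were the same on log2(FPKM + 1), a scale that compresses low values.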

How the data were processed

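RNA of 12 HCT116 libraries was sequenced, and titles and treatment labels gave 3 groups of 4. The submitters' processing notes name Bowtie, RSEM 1.2.4 and the build hg18; strand settings were not given in the sources used here. The deposited files hold expected counts (RSEM estimates, not always whole), FPKM, gene length and effective length, per the file headers. Of 60 expected counts of the 5 genes 58 were whole (within 0.005), and no listed gene in the files overlaps them. Here expected counts were rounded, filtered with filterByExpr (12741 of 18969 genes kept), scaled by TMM and fitted with edgeR 4.0.16 in R 4.3.3, all 12 libraries in 1 fit; tests are two-sided. Lengths were compared by exact permutation (scipy) and, as an alternative chosen after seeing the data, limma 3.58.1. DESeq2 1.42.0, limma-voom, log2 FPKM with a pseudocount of 1 or 0.1, other scalings, filters and subsets were alternatives. The tests were tested on simulated data.

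The 5 genes and all lists were chosen with earlier results of these data known. Genes named from a list are every tested member of lists with up to 6 tested genes, or else drawn from the up to 4 with the smallest p per comparison, plus close paralogs; the text gives part of them. Some items that the lists name are not reported here. Chi-square per degree of freedom was 2.04 to 3.56 for libraries of 1 group, more than counting noise, so none was taken as a duplicate. The median log2 difference of all genes stayed under 0.1 with every scaling. The split of called genes into higher and lower did depend on it, and the shares given above are those with TMM. By library totals only, 3825 were higher and 1838 lower for DMSO recovery against 0 h, in place of 2851 and 2766. For UNC0642 recovery against 0 h they were 4072 and 1959, in place of 2983 and 3007.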

Additional observations from a re-analysis of the deposited data

Results flagged for a closer look

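MYO7A at 0 h was 1.26 CPM in replicate 4 against 0.725, 0.731 and 0.626 CPM in the other 3 libraries, a gap whose share of the group's range passed Dixon's 95% critical value. Without that library the log2 difference of DMSO recovery from 0 h was 1.80 in place of 1.56. The library holds 18 counts of MYO7A and the others 9 to 13.

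MAP2 after UNC0642 recovery was 14.1 CPM in replicate 3 against 11.3, 11.8 and 11.7 CPM, which passed the same value. Without that library the log2 difference between UNC0642 and DMSO recovery was -0.024 in place of 0.05. Of 24 groups tested in this way 2 stood out, and chance marks about 1 in 20 groups.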

How the results depend on the processing

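Each comparison was recomputed under 28 alternatives. LCP1 between UNC0642 and DMSO recovery kept its direction in all of them (0.34 to 0.99, and 0.42 to 0.99 when single libraries were left out) and passed the threshold in 4: no filter (0.59), limma-voom (0.69), length-gap class as a covariate (0.71) and without DMSO replicate 3 (0.99). The cause was not tested. SYNPO between the recoveries turned to -0.049 in the libraries of smaller length gap, MAP2 to -0.024 without UNC0642 replicate 3 and to -0.053 without the 6 libraries with COL1A2, and ARHGDIB between DMSO recovery and 0 h to -0.068 without 0 h replicate 3, -0.076 without the COL1A2 libraries and -0.017 in those of larger length gap. Each was uncalled before and after. With single libraries left out these ranged over 0.085 to 0.17 for SYNPO, -0.13 to -0.009 for MYO7A, -0.024 to 0.087 for MAP2 and -0.068 to 0.22 for ARHGDIB. Against 0 h, in the contrasts that chose them, LCP1, SYNPO, MYO7A and MAP2 kept their sign in all 28, so nothing is read from it. There log2(FPKM + 1), which compresses low values, gave 0.64 and 0.99 for LCP1, 0.91 and 0.99 for SYNPO, 0.27 and 0.25 for MYO7A and 0.91 and 0.94 for MAP2 (DMSO, then UNC0642), and 0.95 (against 0 h) and 0.84 (against DMSO) for ARHGDIB with UNC0642. Genes called numbered 5617, 5990 and 584 in the 3 comparisons, and 2987, 2836 and 277 without the COL1A2 libraries, 2526, 3889 and 120 in the libraries of smaller gap (fewer samples in both). Between the recoveries they were 292 in those of larger gap and 375 with log2(FPKM + 0.1). Leaving out single libraries gave 5153 to 5703, 5505 to 6015 and 402 to 618. The MAP2 length difference was -587.9 to -399.2 and -588.7 to -400.0 bases with single libraries left out. Of 2688 recomputed list counts 277 moved by over 1.5 times. Same replicate numbers did not pair libraries (correlation of deviations -0.103 to 0.045 over 12 pairs, and no library of 12 matched its own number best). With the replicate block LCP1 between the recoveries was 0.63 (adjusted p 0.0545) and 5668, 5998 and 633 genes were called. Depth limits LCP1 and MYO7A most, at 8 to 16 and 9 to 18 counts per library at 0 h.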

Other observations

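DMSO replicate 3, the library with the highest LCP1, was searched for other genes with at least 15 counts there and more than 3 times the CPM of every other library, a rule chosen after the data were seen. It held 5: LAPTM5 (41 counts, at most 14 elsewhere), NCF1 (29, at most 10), TPSAB1 (29, at most 9), GATSL1 (28, at most 0) and CCL2 (27, at most 6). LAPTM5, NCF1, TPSAB1 and CCL2 are known from blood or stromal cells, and NCF1, TPSAB1 and GATSL1 have near-identical copies, so their counts are uncertain. In the other 11 libraries the same search gave 0 to 3 genes.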
